A study of Homo sapiens with 4 samples.

Results

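F-box proteins are the substrate receptors of CRL1, the cullin-RING ubiquitin ligase built on CUL1, and the genes described here are the F-box genes named FBXW, FBXL or FBXO with a number, together with BTRC. They were taken by symbol in the array's annotation, from probe sets with 1 gene symbol. The rule uses no expression value, though it was set with earlier results of these data known. The rule gave 58 genes of 19775 with such a probe set, on 145 probe sets. Of these, 48 counted as measured, against 12446 genes of the whole array, and the other 10 lay below the filter on low values. By family, 10 of 10 FBXW genes and BTRC, 12 of 15 FBXL genes and 26 of 33 FBXO genes were measured. SKP2 and CCNF, which also encode F-box proteins, carry other names and are no members.

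An F-box protein binds SKP1 through its F-box and a target protein through another part, and so brings the target to the CUL1 and RBX1 core for ubiquitination. The second part gives the families their names, with WD40 repeats in FBXW, leucine-rich repeats in FBXL and other or no recognised repeats in FBXO proteins. Many targets are bound only once they are phosphorylated, and much of the cell cycle is timed in this way. CUL1 must carry the ubiquitin-like protein NEDD8 for the ligase to be active, and MLN4924 inhibits the enzyme that activates NEDD8, so every CRL1 receptor depends on the step that the drug blocks. Whether the receptor genes differ in expression is a separate question, and it is the one these arrays address.

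The cells were MM.1S, an established human multiple myeloma line. One culture was a control in the DMSO vehicle, and the others were grown in 250 nM MLN4924 for 8, 16 or 24 h. There was 1 Affymetrix array per group, 4 in all, and the label of the control gave no culture time. All differences are therefore those of 1 array from another, they have no replicate check, and no test was possible. The number of arrays limits the precision.

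Median intensities over the 54675 probe sets lay between 92.2 and 95.4 on the 4 arrays. All 12 plasma cell and MM.1S markers were measured, with intensities from 314.4 to 22314. Of the markers of other cell types, 3 of 6 for T and NK cells, 1 of 6 for myeloid cells and 1 of 6 for stromal fibroblasts passed the filter. The highest single value among these 3 lists was 243.6, and their summed intensities were 476 to 503, 338 to 374 and 591 to 600.4 over the arrays. HBB was the measured erythroid marker of 2 with a probe set, at 1080 on the control array and between 995 and 1219 on the treated arrays. Of the myeloid markers, LYZ and S100A8 were under the floor of 48.4 on every array, CD14 lay between 36.8 and 51.0, and CSF1R, FCN1 and ITGAM lay above the floor, between 61.5 and 109. The pooled SD of the log2 difference between measured probe sets of the same gene was 0.160, 0.189 and 0.180 at 8, 16 and 24 h against control. It covers probe set spread within one pair of arrays and leaves out the spread between cultures. A log2 difference of 0.5, or 1.41-fold, was 2.64 to 3.13 times that SD against control and is the size used below to count genes.

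The F-box genes were first counted at 2-fold. No measured member differed 2-fold or more in its brightest probe set in any of the 5 comparisons. Among all measured genes, 0.129% passed 2-fold upward and 0.121% downward at 8 h. The shares were 0.386% and 0.289% at 16 h, and 0.514% and 0.193% at 24 h. For 16 h against 8 h they were 0.217% and 0.161%, and for 24 h against 16 h they were 0.0402% and 0. At a background of well under 1%, fewer than 1 of 48 members would be past 2-fold, so the count of 0 is near the background and is no result about the family.

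At the smaller size of 0.5, 1 member was higher at 8 h, against a background of 1.38%, and 3 were lower, against 1.78%. At 16 h 5 were higher, against 3.74%, and 2 lower, against 4.07%. At 24 h 2 were higher, against 4.29%, and 2 lower, against 3.54%. The share of members was thus 10.4% for the higher genes at 16 h and 6.25% for the lower genes at 8 h, above the background, and 4.17% in both directions at 24 h, near it. Of the 3 lower genes at 8 h, FBXO16 was only just past the size, at -0.503, and quantile normalization left 2, without FBXO16. In all, 9 of 48 members (18.8%) were past 0.5 by their brightest probe set in at least 1 comparison against control, beside 12.5% of all measured genes. They were FBXO44, FBXL20, FBXL17, FBXL19 and FBXO6 on the higher side and FBXO4, FBXO5, FBXL5 and FBXO16 on the lower side. None was an FBXW gene, and BTRC was not among them.

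**Figure D1:**
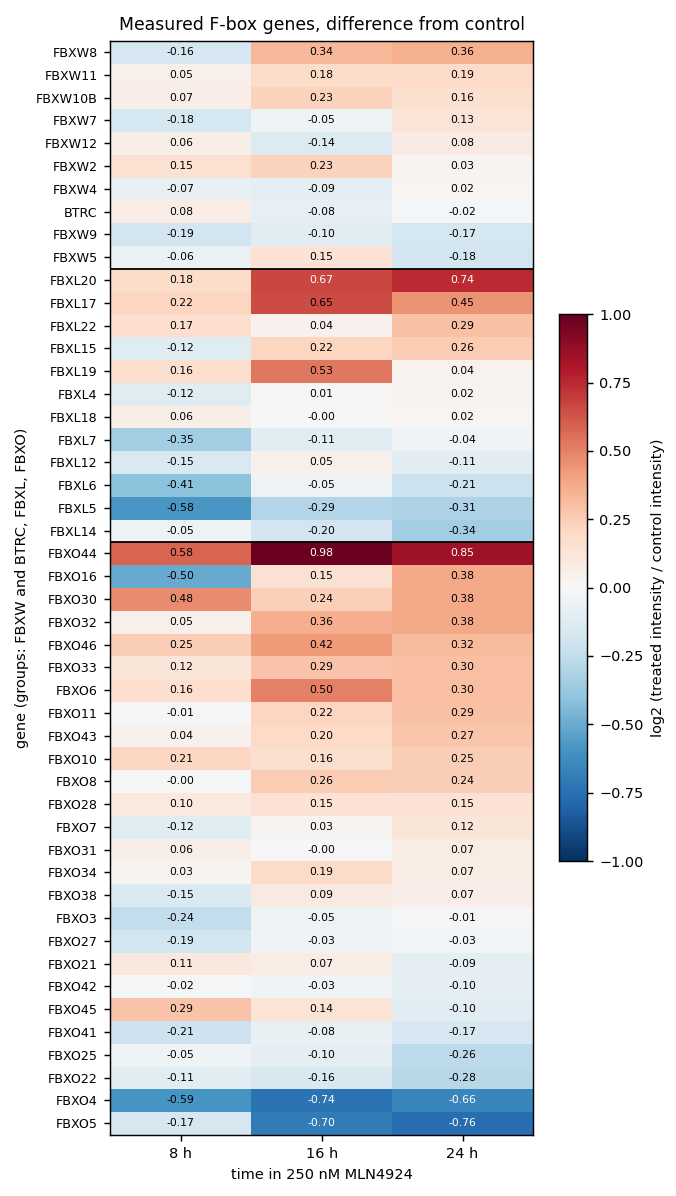
Log2 difference from the control array of the 48 measured F-box genes (rows, grouped as FBXW and BTRC, FBXL and FBXO, and ordered by the 24 h value within a group) after 8, 16 and 24 h in 250 nM MLN4924 (columns), 1 array per group, with the value in each cell. The strongest colours are those of FBXO44 (0.98 at 16 h) and FBXL20 (0.74 at 24 h) on the higher side, and of FBXO5 (-0.76 at 24 h) and FBXO4 (-0.74 at 16 h) on the lower side.

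FBXO5, also called EMI1, had the lowest value of the family at 24 h, among brightest probe sets. It carries an F-box but is best known as an inhibitor of the anaphase-promoting complex, which it holds back through S phase, and it is itself a target of the BTRC and FBXW11 ligases. On the control array its intensity was 991, and on the 8, 16 and 24 h arrays it was 884, 612 and 584. In bulk RNA, fewer cells in a phase of the cycle and less RNA per cell cannot be told apart. The 8 h array was near the control, and both later arrays were low. The log2 differences were -0.17, -0.70 and -0.76, so the 24 h level was 1.70-fold lower than the control. A second measured probe set gave -0.12, -0.80 and -0.74, and the step from 8 to 16 h was -0.53 in the brightest probe set. Both of its probe sets are of a kind whose names (_x_at, _s_at) mark probes that can match further transcripts, so the gene had no value without them.

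FBXO4, a receptor linked to cyclin D1, was already low at 8 h. Its intensity was 305 on the control array and 203, 183 and 194 at 8, 16 and 24 h. All 3 treated arrays lay below the control, and they lay close to each other. The log2 differences were -0.59, -0.74 and -0.66, and this rested on the single measured probe set of the gene. Another probe set, below the filter, stood at 67.7, 71.4, 67.4 and 83.4 on the control, 8, 16 and 24 h arrays, and it showed no such difference. The median of the levels of all its probe sets, which falls on the dim one, gave 0.077, -0.0068 and 0.30.

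Among brightest probe sets, FBXO44 had the highest value of the family at each time against control. It belongs with FBXO2, FBXO6, FBXO17 and FBXO27 to the group of F-box proteins that share the FBA domain, several of which bind the sugar chains of misfolded glycoproteins. Against 121 on the control array, its intensity was 181, 238 and 217 at 8, 16 and 24 h, with each treated array above the control. The log2 differences were 0.58, 0.98 and 0.85, and the 16 h level was 1.97-fold higher. A second measured probe set, of the _x_at kind, stood at 138, 137, 131 and 141 on the control, 8, 16 and 24 h arrays and did not follow it, with differences of -0.0073, -0.067 and 0.031. The mean over both probe sets was 0.29, 0.46 and 0.44, under 0.5 at each time. By the same mean FBXO44 was under FBXO30 (0.48) at 8 h and under FBXO32 (0.81 and 0.81) at 16 and 24 h. Other members were above it too, among them FBXL19 (0.53) and FBXO6 (0.50) at 16 h, with 1 measured probe set each. At 24 h both measured probe sets of FBXL20 (0.74 and 0.48) were above that mean.

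FBXO44 lies between FBXO2 and FBXO6 on chromosome 1, where the 3 are consecutive coding genes in the RefSeq gene table. FBXO6, which has 1 probe set, stood at 199 on the control array and 223, 283 and 245 at 8, 16 and 24 h. These are log2 differences of 0.16, 0.50 and 0.30, highest on the 16 h array as in the brightest probe set of FBXO44. The second measured probe set of FBXO44 was lowest on that array, at 131. FBXO2 was below the filter, at 84.3, 70.2, 90.3 and 95.2, and FBXO17 was below it too. FBXO27, the last of the FBA group, stood at -0.19, -0.035 and -0.027.

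FBXL20 was the highest FBXL gene at 16 and 24 h. It is a leucine-rich repeat receptor that has been studied at the synapse. The control array had an intensity of 289 and the 8, 16 and 24 h arrays 328, 459 and 484, with the 2 later arrays well above the first 2. The log2 differences were 0.18, 0.67 and 0.74. Its other measured probe set gave -0.038, 0.43 and 0.48, on the same side at 16 and 24 h. Of its 3 probe sets below the filter, 1 gave 0.27 and 0.44 at these times, 1 gave -0.16 and -0.23, and 1 was under the floor. The median of all 5 levels on each array, which falls on dim probe sets, gave -0.16 at 16 h and -0.087 at 24 h.

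The 250 bases before the start sites of the 2 lowest and the 2 highest members at 24 h are printed here because these genes sit at the ends of the family. They are from RefSeq (GRCh38.p14), 5' to 3' on the strand of the gene, and a gene with 2 start sites in that table has 2 sequences. Capitals mark a match to an E2F word (TTTGGCGC, TTTCCCGC, TTTGCCGC, TTTCGCGC, TTCCCGCC or TTGGCGCC, some of which overlap each other) or to the antioxidant response element (TGACNNNGC), the site of NRF2, on either strand.
FBXO5 start 1, chr6:152983580-152983829, minus strand: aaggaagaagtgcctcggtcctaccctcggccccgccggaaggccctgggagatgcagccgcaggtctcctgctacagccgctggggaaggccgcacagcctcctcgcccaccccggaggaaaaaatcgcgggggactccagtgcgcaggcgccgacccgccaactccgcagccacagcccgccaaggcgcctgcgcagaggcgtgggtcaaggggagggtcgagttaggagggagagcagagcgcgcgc
FBXO5 start 2, chr6:152983042-152983291, minus strand: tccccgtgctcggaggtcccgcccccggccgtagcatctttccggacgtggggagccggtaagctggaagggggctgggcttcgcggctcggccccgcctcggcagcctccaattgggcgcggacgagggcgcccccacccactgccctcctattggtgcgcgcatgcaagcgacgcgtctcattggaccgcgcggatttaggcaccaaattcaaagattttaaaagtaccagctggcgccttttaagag
FBXO4, chr5:41925031-41925280, plus strand: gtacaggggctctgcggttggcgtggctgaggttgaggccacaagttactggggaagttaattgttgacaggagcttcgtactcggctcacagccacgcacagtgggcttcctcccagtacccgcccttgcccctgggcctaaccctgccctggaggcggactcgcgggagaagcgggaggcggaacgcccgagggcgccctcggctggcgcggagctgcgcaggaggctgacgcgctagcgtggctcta
FBXO44, chr1:11654157-11654406, plus strand: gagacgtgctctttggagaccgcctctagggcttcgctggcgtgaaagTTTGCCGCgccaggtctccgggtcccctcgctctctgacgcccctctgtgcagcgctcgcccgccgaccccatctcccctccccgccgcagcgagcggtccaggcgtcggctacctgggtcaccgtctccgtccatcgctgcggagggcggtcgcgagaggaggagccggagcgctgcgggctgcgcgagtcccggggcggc
FBXL20 start 1, chr17:39402557-39402806, minus strand: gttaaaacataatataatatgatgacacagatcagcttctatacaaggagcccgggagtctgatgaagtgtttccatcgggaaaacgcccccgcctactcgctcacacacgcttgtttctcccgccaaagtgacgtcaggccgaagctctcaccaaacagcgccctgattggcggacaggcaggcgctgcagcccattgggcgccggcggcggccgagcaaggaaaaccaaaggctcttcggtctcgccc
FBXL20 start 2, chr17:39401627-39401876, minus strand: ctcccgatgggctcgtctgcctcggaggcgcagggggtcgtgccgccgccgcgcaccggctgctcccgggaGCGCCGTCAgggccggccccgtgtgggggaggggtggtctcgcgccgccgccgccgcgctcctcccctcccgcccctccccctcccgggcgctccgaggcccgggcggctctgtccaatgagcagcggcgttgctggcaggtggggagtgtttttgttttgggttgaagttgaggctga

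FBXO44 held the E2F word TTTGCCGC and the second FBXL20 start held 1 antioxidant element, while no match lay in these windows of FBXO5 or FBXO4. Of the 35116 RefSeq promoters, 5.36% held an E2F word and 10.9% an antioxidant element in the same 250 bases. Among 52 promoters of the 36 measured members that the table lists, 2 (3.85%) and 8 (15.4%) did. Of 29 promoters of other E2F and G1/S genes, 15 (51.7%) held an E2F word. A match is a string of letters, not a shown binding site, and a window without one says nothing of the factor.

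FBXL17, which removes wrongly paired BTB domain proteins, stood at 179 on the control array and 208, 281 and 244 at 8, 16 and 24 h. The log2 differences were 0.22, 0.65 and 0.45, and its second measured probe set gave 0.071, 0.36 and 0.27, the same side at each time. Its other 3 probe sets were at or near the floor, and the median of the levels of all 5 gave 0.00 at 16 h and 0.11 at 24 h, which ends the 16 h call. FBXL19, whose protein binds unmethylated CpG islands, was high on the 16 h array alone, with intensities of 208, 233, 299.7 and 213. Its differences were 0.16, 0.53 and 0.037, and the step from 16 to 24 h was -0.49. Both FBXL19 and FBXO6 lay just past 0.5 at 16 h, and at 0.49 and 0.47 when the arrays were centred on one median.

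FBXL5 is the iron-sensing receptor, which is stable when iron is plentiful and then targets the iron regulatory protein IREB2. Its intensities were 667, 447, 545 and 537 on the control, 8, 16 and 24 h arrays. The 8 h array was the lowest, and the later arrays lay between it and the control. The log2 differences were -0.58, -0.29 and -0.31. A second measured probe set gave -0.34, 0.24 and -0.084, so both were lower at 8 h and they disagreed at 16 h.

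FBXO16, a receptor of little known function, was low at 8 h and high at 24 h. The control array stood at 347 and the 8, 16 and 24 h arrays at 245, 386 and 452, with log2 differences of -0.50, 0.15 and 0.38. The step from 8 to 16 h, 0.66, was the largest upward step of any measured member in its brightest probe set. FBXO32 had other measured probe sets at 1.19 and 1.02, the second of them dim at 8 h (66.8). FBXO16 had 1 probe set of its own. The 3 probe sets that the annotation gives to FBXO16 and ZNF395 together, which were not used for either gene, stood between 0.11 and 0.20 at 8 h and between -0.20 and -0.15 at 24 h.

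**Figure D2:**
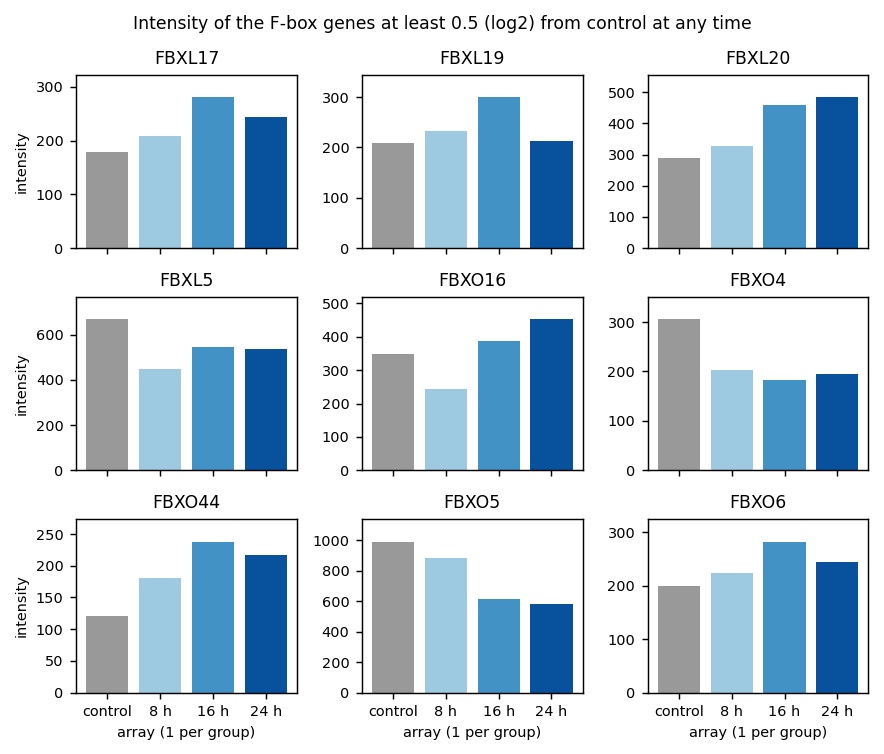
Deposited intensity (linear scale from 0, each panel with its own axis) on the control, 8, 16 and 24 h arrays, 1 array per bar. Shown are the 9 F-box genes whose brightest probe set differed from control by at least 0.5 (log2) at any time. FBXO4 is lower on all treated arrays (203, 183 and 194 against 305), FBXO5 on the 16 and 24 h arrays, and FBXL5 and FBXO16 have their lowest bar at 8 h.

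The phosphodegron receptors, which have the best known targets, were near the control. BTRC and FBXW11, a close pair of receptors that take IkB alpha and beta-catenin among others, stood at 222, 234, 209.7 and 219 and at 857, 890, 974 and 976 on the 4 arrays. Their log2 differences were 0.076, -0.081 and -0.021 for BTRC and 0.054, 0.18 and 0.19 for FBXW11. FBXW7, the receptor of cyclin E, MYC and NOTCH, stood at 997, 881, 965 and 1089, or -0.18, -0.046 and 0.13. Its 3 measured probe sets were all below the control at 8 h and all above it at 24 h, from -0.24 to -0.16 and from 0.031 to 0.21. The other FBXW genes had differences between -0.19 (FBXW9 at 8 h) and 0.36 (FBXW8 at 24 h). FBXW8, which pairs with CUL7, had the largest step of the group, from 86.3 at 8 h to 122 at 16 h. That step is of 1 dim probe set, at 96.7 on the control array and under the array median of 95.1 at 8 h. FBXW12 was measured through an _x_at probe set at 596 on the control array, while its other probe set was at 38.3, under the floor.

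FBXO32, also called atrogin-1 or MAFbx, is a receptor known from muscle wasting and a target gene of FOXO transcription factors. Its brightest probe set stood at 367, 380, 471 and 476 on the control, 8, 16 and 24 h arrays, which is 0.050, 0.36 and 0.38 (log2). The other 3 measured probe sets gave 0.11, 0.037 and 0.019 at 8 h, 1.30, 0.54 and 1.04 at 16 h, and 1.17, 0.54 and 1.16 at 24 h. One of them stood at 186, 201, 458 and 419, so it was over 2-fold higher than the control at 16 and 24 h. All 4 probe sets were near the control at 8 h and above it at both later times, but they differed in size more than for most members. The mean of the measured probe sets was 0.81 at 16 h and 0.81 at 24 h, and the median of the levels of all 7 gave 0.94 and 1.06. FBXO32 was thus below the size used for counting in its brightest probe set and past it in the other 3 at 16 and 24 h.

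FBXO11, the receptor of BCL6 in B cells, had probe sets that disagreed. The brightest stood at 770, 762, 895 and 943 and the other measured one at 628, 599.9, 479 and 524 on the control, 8, 16 and 24 h arrays. Their differences were -0.015, 0.22 and 0.29 in the first and -0.066, -0.39 and -0.26 in the second. No direction can be given for FBXO11 at 16 or 24 h.

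FBXO22, a receptor with KDM4A and BACH1 among its targets, was slightly low in all 4 measured probe sets at the later times. The brightest stood at 791, 730, 709 and 652, or -0.11, -0.16 and -0.28. The others lay between -1.20 and -0.11 at 16 h and between -0.48 and -0.18 at 24 h. The value of -1.20 was that of a dim probe set at 169, 131, 73.5 and 121, which was the only measured one of the 4 to go below the array medians. FBXO7, the receptor that is mutated in a form of early parkinsonism, stood at 1292, 1187, 1318 and 1405, or -0.12, 0.029 and 0.12. Its second measured probe set gave -0.23, -0.036 and -0.030, on the other side at 16 and 24 h. FBXL12 stood at 779, 702, 807 and 721, or -0.15, 0.051 and -0.11.

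**Figure D3:**
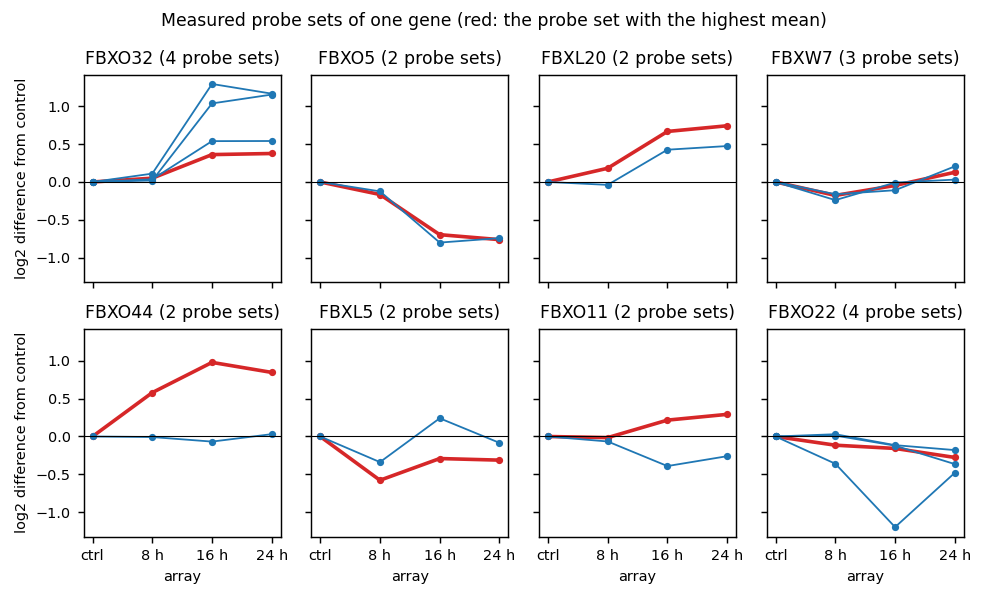
Log2 difference from the control array of each measured probe set of 8 F-box genes (1 line per probe set; red marks the one with the highest mean, used for the gene) on the control, 8, 16 and 24 h arrays. The 4 lines of FBXO32 lie between 0.36 and 1.30 at 16 h, the 2 of FBXO5 between -0.80 and -0.70, and those of FBXO44, FBXL5 and FBXO11 part.

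Over the 23 members with at least 2 measured probe sets, all of the probe sets of a gene had the same sign in 16, 10 and 13 genes at 8, 16 and 24 h. The pooled SD between probe sets of these members was 0.136, 0.265 and 0.208 (log2), beside 0.160, 0.189 and 0.180 for all genes.

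The remaining members are given by their range. Counting those above with small differences, 39 of the 48 were under 0.5 at all 3 times in their brightest probe sets. They lay between -0.41 (FBXL6) and 0.48 (FBXO30) at 8 h, between -0.20 (FBXL14) and 0.42 (FBXO46) at 16 h, and between -0.34 (FBXL14) and 0.38 (FBXO30) at 24 h. Other measured probe sets of FBXO32, FBXO22, FBXL4 and FBXO21 were past 0.5 against control, that of FBXO21 at 0.64 at 24 h. FBXO30, a receptor studied in muscle loss, had its highest value at 8 h, at 503 against 362 on the control array. FBXL14, which targets SNAI1, had intensities of 679, 655, 593 and 534. FBXO45, which works with the ligase MYCBP2, stood at 1747, 2131, 1923 and 1627, and its 3 measured probe sets were between 0.25 and 0.29 at 8 h. It was below the control in all 3 at 24 h, from -0.19 to -0.10. FBXO33 had both probe sets above the control at each time, at 0.12 and 0.14, 0.29 and 0.30, and 0.30 and 0.43. FBXO31, FBXL18, FBXW4 and FBXO42 differed by at most 0.10 in their brightest probe sets.

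Several of these genes had more than 1 measured probe set. FBXO28, which has been tied to MYC, had 4 measured probe sets between 0.0039 and 0.098 at 8 h and between 0.049 and 0.32 at 24 h. FBXO3 was below the control in all 4 of its measured probe sets at 8 h, from -0.42 to -0.032, with the brightest at 515, 436, 498 and 509.9 on the 4 arrays. They were split at 16 h, with 2 above and 2 below the control, and at 24 h, with 1 above and 3 below. FBXL4, a mitochondrial F-box protein that restrains mitophagy, was below it in all 3 at 8 h, from -0.56 to -0.099, and was split at the later times. FBXO38 was split at 8 h and above the control in all 3 probe sets at 24 h, from 0.065 to 0.12. FBXL7, which targets Aurora A, has 1 probe set and was lowest at 8 h, at 597 against 759, 703 and 739 on the control, 16 and 24 h arrays. FBXL15, the receptor of SMURF1, stood at 281, 259, 327 and 336, and FBXO10 at 107, 123, 119 and 127, only a little over the filter.

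The median log2 difference of the 48 members was -0.0094, 0.080 and 0.070 at 8, 16 and 24 h, beside 0.0071, 0.026 and 0.016 over all measured genes. The members above the control numbered 23, 29 and 30 (47.9%, 60.4% and 62.5%), beside 51.7%, 54.3% and 52.6% of all measured genes. The 3 comparisons share the control array. Between 8 and 16 h the median difference was 0.15, beside 0.015 over all genes, and 32 of 48 (66.7%) were higher at 16 h, beside 52.9%. The FBXL genes had a median of 0.26 in that step, the FBXO genes 0.15 and the FBXW genes with BTRC 0.11. Only FBXO16 was at least 0.5 higher in it (background 3.25%) and only FBXO5 at least 0.5 lower (background 2.72%). Between 16 and 24 h the median was 0.0019, no member was 0.5 higher (background 1.31%) or lower (background 0.273%), and 25 of 48 were above 0 (background 45.5%).

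**Figure D4:**
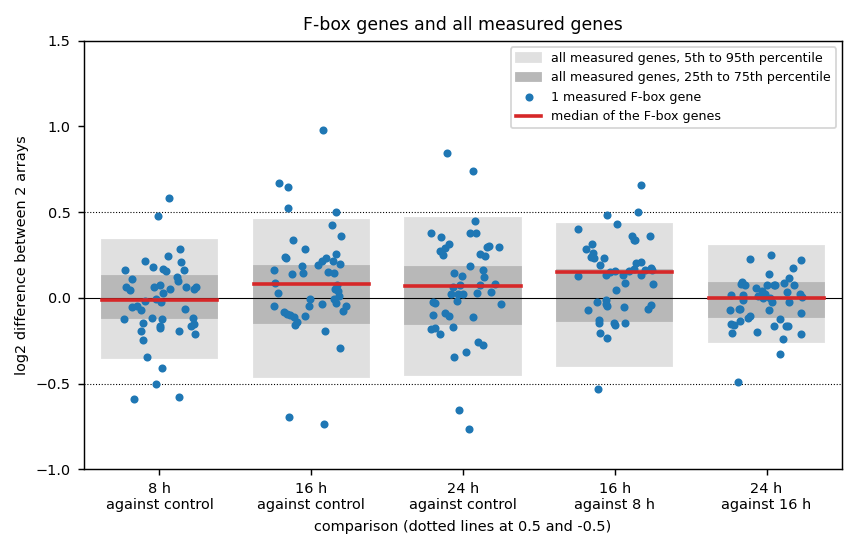
Log2 difference between 2 arrays for each measured F-box gene (blue points, 48 per comparison, spread sideways at random) in the 5 comparisons, with their median (red line), over the 5th to 95th and the 25th to 75th percentiles of all 12446 measured genes (light and dark grey). The median of the F-box genes is 0.15 in the step from 8 to 16 h and within 0.1 of 0 in the other comparisons, and most points lie inside the light band.

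The partners of the receptors, the other parts of the ligase, were counted in the same way. Of the 17 listed genes of the CRL1 core and of NEDD8 attachment, 15 were measured and none was past 0.5 against control, with medians of 0.086, -0.025 and -0.017. Of all measured genes 1.38%, 3.74% and 4.29% were 0.5 higher and 1.78%, 4.07% and 3.54% lower at 8, 16 and 24 h, so a count of 0 of 15 is near the background. RBX1, the RING subunit shared with other cullins, had the largest difference, from 3520 on the control array to 3076, 2639 and 2630 (-0.19, -0.42 and -0.42). GLMN, which binds RBX1 and inhibits it, stood at 0.21, -0.34 and -0.16, a step of -0.55 from 8 to 16 h, and CAND1, which exchanges F-box receptors on CUL1, at -0.14, -0.27 and -0.24. A further 8 measured genes were listed for an F-box, a former F-box name or, for FBF1, a similar symbol. Among them CCNF (0.59 at 8 h) and FBH1 (0.54 at 24 h) were past 0.5, and TSPAN17 stood at 0.49, 0.47 and 0.47.

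The genes of known targets of the receptors were described in 3 lists. Their RNA is measured here, whereas the ligases act on the proteins. Of 19 measured targets of BTRC and FBXW11, which include FBXO5, 2 were at least 0.5 lower at 8 h, 6 at 16 h and 5 at 24 h, beside 1.78%, 4.07% and 3.54% of all measured genes, and none was 0.5 higher. The medians were -0.027, -0.34 and -0.37, beside 0.0071, 0.026 and 0.016 over all measured genes. FBXO5 and CDC25A of this list, CCNE2 of the next and DTL of the last are also among the E2F and G1/S genes given further on. FANCM, of the Fanconi pathway, stood at -0.051, -0.93 and -0.91. DEPTOR, an inhibitor of mTOR, stood at -0.82, -0.19 and -0.24, and the repressor gene REST at -0.63, -0.81 and -0.37, with 1 of its 3 measured probe sets on the other side at 16 and 24 h. FANCM had intensities of 88.1 and 89.4 on the later arrays, under the medians of those arrays.

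Of 20 measured targets of FBXW7, 1, 2 and 4 were at least 0.5 lower at 8, 16 and 24 h, beside the same 1.78%, 4.07% and 3.54% of all genes, and none was 0.5 higher, with medians of -0.047, -0.13 and -0.20. A count of 1 or 2 of 20 is near that background. KLF2, a transcription factor, stood at -1.23, -1.31 and -1.39, CCNE2, a cyclin E gene, at 0.11, -0.48 and -0.69, and KLF5 at -0.065, -0.23 and -0.62. The second measured probe set of KLF5 did not share its sign at 8 and 16 h. The intensity of KLF5 at 24 h was 84.4, under the median of that array (95.4). Of 20 measured targets of other F-box proteins, 2, 4 and 4 were 0.5 lower and 0, 1 and 1 higher (background 1.38%, 3.74% and 4.29%), with medians of -0.039, -0.043 and -0.054 and 9 of the 20 above 0 at 8 and at 16 h. In that list CDKN1A, the CDK inhibitor p21, stood at -0.28, -0.67 and -1.05, CDT1 at -0.099, -0.65 and -0.94, and DTL at -0.13, -0.68 and -0.92. The one higher gene was BCL2, a target of FBXO10, at 0.62 and 0.65, and 1 of its 3 measured probe sets had the opposite sign at each time.

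FBXO5 was set beside the genes that E2F factors drive at the G1/S transition, since it is one of them. The list was drawn up with earlier results of these data known, so its counts only describe these arrays. Of the 23 other measured genes of that list, none was 0.5 lower at 8 h, 15 were at 16 h and 19 were at 24 h, beside 1.78%, 4.07% and 3.54% of all measured genes, and all 23 were below 0 at the last 2 times. Their medians were -0.048, -0.68 and -0.87, and FBXO5 stood at -0.17, -0.70 and -0.76. MCM5, a subunit of the replicative helicase, stood at -0.061, -0.98 and -1.30, CDC6, which loads it, at -0.26, -1.18 and -1.08, and GINS2, a helicase partner, at -0.11, -0.96 and -1.16. FBXO5 thus lay near the median of the list at 16 h. The part of the cell cycle makeup of the cultures in its value was not tested.

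**Figure D5:**
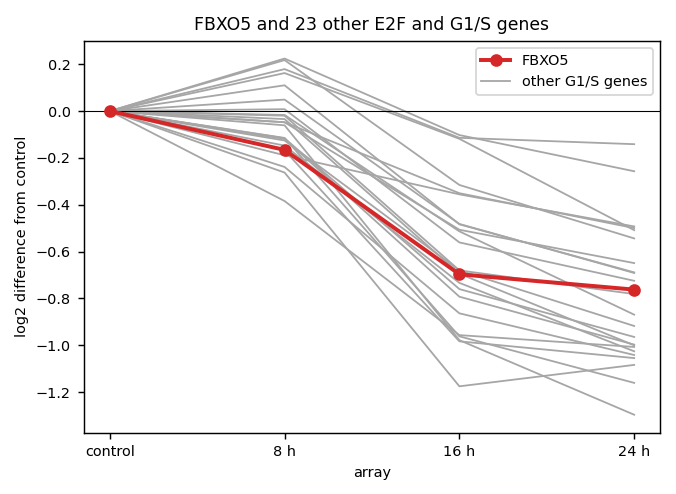
Log2 difference from the control array on the control, 8, 16 and 24 h arrays for FBXO5 (red) and 23 other E2F and G1/S genes (grey, 1 line per gene), 1 array per group. FBXO5 is at -0.17, -0.70 and -0.76, among grey lines that all end below 0 at 16 and 24 h.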

How the data were processed

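Per the labels' protocols, Trizol RNA was made into biotinylated cRNA for Affymetrix arrays. The values deposited by the authors are intensities on a linear scale, and how they were summarised and normalized is not given in the sources used here. Groups came from the sample labels, with 1 array each. Probe sets were named by the array's annotation, and 41097 of 54675 had 1 gene symbol. Values under the 25th percentile of the table (48.4) were set to it, and log2 was taken. The brightest probe set by mean stood for a gene, which counted as measured where that mean exceeded the middle of the means of all probe sets (93.9). None of the measured members was at the floor. Pseudogenes and noncoding genes (5 symbols) and 4 probe sets with several symbols were left out. No test was run. Named genes were every measured member at least 0.5 (log2) from control at any time, a fixed set of well-known members, and up to 3 genes per list. BCL2, FBXO30, FBXL14, FBXO45, FBXO33 and others given within ranges were named after their values were seen. The members and lists were chosen with earlier results of these data known. The counting was tested on simulated data. Tools were Python 3.11.15, pandas 2.3.3 and matplotlib 3.10.9.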

Additional observations from a re-analysis of the deposited data

Results flagged for a closer look

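FBXO16 stood on opposite sides of the control at 2 times, at -0.50 (log2) after 8 h and 0.38 after 24 h, each more than 2 pooled SDs of probe sets away from 0 (0.320 and 0.360). It was the only one of the 48 measured members for which this held. The difference between the times was not tested, since each time had 1 array. Probe sets shared with ZNF395 did not follow it.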

How the results depend on the processing

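A family count or median was compared with its value under another setting 200 times. Of these, 173 stayed within 1.5 times the count, or within the probe set spread for medians. Many of them could hardly move, since every 2-fold count was 0 as reported and each median was smaller than that spread. The 27 that moved were counts at 0.5, apart from the 2-fold counts of FBXO32. The median of the members ranged from -0.054 to 0.012 at 8 h, 0.046 to 0.12 at 16 h, 0.021 to 0.074 at 24 h and 0.13 to 0.17 for 16 h against 8 h. With the median over all probe sets of a gene, members at least 0.5 higher numbered 0, 3 and 1 at 8, 16 and 24 h and 2 for 16 h against 8 h, and those 0.5 lower 1, 1 and 1. FBXO32 was then 2-fold higher, the count of 2-fold genes being 1 at 24 h and 1 for 16 h against 8 h. This median of levels, which can fall on dim probe sets, also put FBXL20 at -0.16 and -0.087 at 16 and 24 h and FBXO4 at 0.077 and 0.30 at 8 and 24 h, the opposite sides. Without probe sets named _x_at and _s_at, which leaves FBXO5 no value, 1 member was lower at 16 h, 1 at 24 h and 0 for 16 h against 8 h, where 2 were higher. With no filter 2 members were lower for 16 h against 8 h and 1 was higher for 24 h against 16 h. With the filter at the 75th percentile, 34 members remained, and 0, 1 and 1 were higher at 8, 16 and 24 h and 1 and 1 lower at 16 and 24 h. Centring the arrays on one median left 3 higher at 16 h, and both this and quantile normalization gave 2 higher for 16 h against 8 h and 1 lower for 24 h against 16 h. The mean of a gene's measured probe sets, an alternative chosen after seeing the data, gave 0 higher at 8 h and 2 for 16 h against 8 h. Having no floor changed none of these counts. No paired analysis was possible because each group had 1 array. Signal near background limits the dim members, such as FBXW10B and FBXL22, and no value shows the spread between cultures.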

Other observations

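The 10 members below the filter were FBXL8, FBXL13, FBXL16, FBXO2, FBXO15, FBXO17, FBXO24, FBXO36, FBXO39 and FBXO40. Their intensities lay between 15.1 and 110.3 on the 4 arrays, and FBXO15, a gene known from embryonic stem cells, and FBXL13 were under the floor on every array.

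Circadian clock genes were listed because BTRC and FBXW11 act on PER proteins. Of 14 measured, 2, 1 and 2 were at least 0.5 (log2) higher at 8, 16 and 24 h, beside 1.38%, 3.74% and 4.29% of all measured genes, and none was 0.5 lower. BHLHE41, a repressor of the clock loop, stood at 0.57, 1.23 and 1.18, with 1 of its 3 measured probe sets on the opposite side at each time. NR1D2, also a repressor of that loop, stood at 0.97, 0.45 and 0.59, from a control intensity of 109.9, and its second measured probe set pointed the other way. PER2 stood at 0.24, -0.34 and -0.49, and its second measured probe set was on the other side at 8 and 16 h.

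Transcripts next to the F-box family were left out of the members. FBXL19-AS1, the antisense gene of FBXL19, stood at 166, 168, 174 and 155 on the control, 8, 16 and 24 h arrays, and the pseudogene FBXW4P1 at 187, 184, 194 and 189. FBXO38-DT, a divergent transcript at FBXO38, stood at 64.3, 73.3, 75.8 and 84.2 (0.19, 0.24 and 0.39 on the log2 scale) and the pseudogene FBXL9P at 82.5, 80.4, 96.7 and 83.8, both with a mean under the median of the probe set means. The probe sets of the pseudogene FBXL21P lay at or near the floor.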
